A study of Homo sapiens with 6 samples.

Results

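The genes described here encode splicing factors. They are all genes of the deposited table whose symbol begins with HNRNP, SRSF and a digit, SF3A or SF3B and a digit, SNRP, PRPF and a digit, or U2AF, with HNRNPA2B1 and HNRNPC left out. They were chosen by name, with earlier results of these data known. Of 11081 gene rows, 70 met this rule: 20 HNRNP, 12 SRSF, 9 SF3A or SF3B, 12 SNRP, 13 PRPF and 4 U2AF genes. RNA-seq had been done on T24, an established cell line from a human bladder cancer. The cells carried either a control hairpin (shControl, genotype WT in the labels) or a hairpin against the long noncoding RNA BLACAT3 (shBLACAT3, a knockdown by its label). Both hairpins came in lentivirus, and both cell populations had been put through puromycin selection. The labels do not say whether each was a pool or a single clone. Each group had 3 libraries. Nothing says that they came from separate cultures, so a p-value here may measure technical spread alone.

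Splicing removes introns from a transcript and is carried out by the spliceosome, a machine built on small nuclear RNAs and their proteins (snRNPs). SNRP genes encode proteins of these particles, among them the Sm proteins that form a ring on the RNA. U2AF binds the end of the intron and helps to recruit the U2 snRNP, whose SF3A and SF3B complexes hold the branch point. PRPF genes, named after yeast mutants in RNA processing, include proteins of the U4/U6.U5 tri-snRNP and of the U1 particle. SR proteins (SRSF genes) bind exons and often favour their inclusion, while many HNRNP proteins oppose it.

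Values were read as FPKM (fragments per kilobase of transcript per library total), a level that can be compared between genes because it is scaled to length. The columns summed to 211958 to 226953 FPKM, and the read depth behind them is unknown. The targeted RNA was not analysed here, so the group labels were not checked against its level. Of 7 epithelial markers, the keratin genes KRT7, KRT8 and KRT18 were in the table, with a summed level of 174 to 204 FPKM in shControl and 117 to 136 in shBLACAT3 libraries. KRT8 and KRT18 fell (log2 fold changes -1.42 and -0.58, adjusted p 0.00039 and 0.022 in limma), and KRT7 did not pass (0.69, adjusted p 0.097). The part of this shift in the results below was not tested. The other epithelial markers, the 8 urothelial and the 5 endothelial markers searched were not analysed here. Of 8 leukocyte markers, CD68 was in the table, at 0.686 to 1.21 FPKM in shControl and 0.489, 0.00379 and 0.624 FPKM in shBLACAT3 replicates 1, 2 and 3. In RNA from bulk cells, fewer cells of a type and less RNA per cell cannot be told apart.

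Every tested splicing factor gene changed by less than 0.5 on the log2 scale in shBLACAT3 cells, and those that passed the test rose. They were HNRNPH1, HNRNPA3, SNRPA1 and PRPF8, whose mean FPKM was 21.6% to 33.5% higher. A mean of 1 FPKM or more was reached by 67 of the 70 genes, and these were tested with limma on log2(FPKM + 1) within a fit of all 10008 genes above that minimum. At an adjusted p under 0.05, 4 members (5.97%) were called higher, where 2.57% of all tested genes were. None was called lower (0 of 67), where 6.80% of all tested genes were, and 9.37% of all tested genes were called in either direction. At an unadjusted p under 0.05, limma had 18 members higher (10.5% of all tested genes) and 2 lower (15.2% of all tested genes). The fold changes of the members ran from -0.34 to 0.45 on the log2 scale. A change of more than 0.5 was seen in 0 members and in 8.06% of all tested genes. The median absolute log2 fold change was 0.139 in the members and 0.146 in all tested genes.

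The small differences leaned to one side. The log2 fold change was above 0 in 49 of 67 members (73.1%), against 49.4% of all tested genes, and the median was 0.097 in the members and -0.0025 in all tested genes. In 23 members (34.3%) every shBLACAT3 library lay above every shControl library, against 14.1% of all tested genes. In 1 member, SNRPN, every shBLACAT3 library lay below, against 18.6% of all tested genes. The members were more abundant than the tested genes at large, with a median level of 37.0 against 7.15 FPKM. Their median SE was 0.080 against 0.099. The shares above were not matched for level. Relative to the shControl mean of each gene, the median member stood at 0.095, 0.10 and 0.11 on the log2 scale in shBLACAT3 replicates 1, 2 and 3. It stood at -0.017, 0.0084 and 0.00064 in the shControl replicates, and the median of all tested genes lay between -0.021 and 0.013 in the 6 libraries. By family, the median fold change was 0.24 in PRPF, 0.14 in HNRNP, 0.13 in SRSF, 0.097 in U2AF, 0.068 in SNRP and -0.0086 in SF3A and SF3B genes. The U2AF median came from 3 tested genes and was the value of U2AF1L4, whose mean level was 1.11 FPKM. Differences between families were not tested, and their order moved with the libraries kept. Without shBLACAT3 replicate 2 the median was 0.19 in PRPF, 0.20 in U2AF, 0.020 in SNRP and 0.061 in SF3A and SF3B genes. Without shBLACAT3 replicate 3 it was -0.0064 in U2AF, 0.024 in SNRP and -0.044 in SF3A and SF3B genes.

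**Figure D1:**
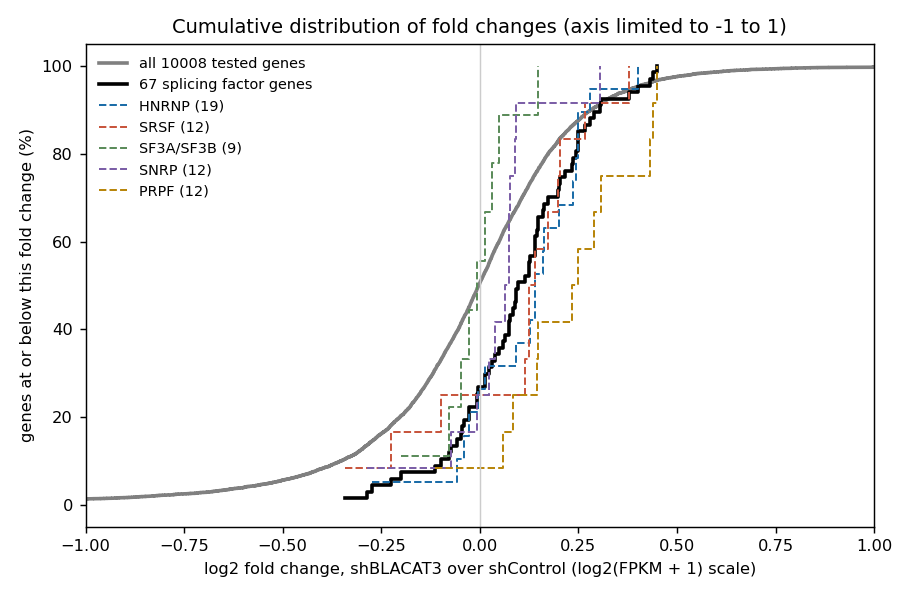
Cumulative distribution of log2 fold changes (x axis, log2(FPKM + 1) scale, limited to -1 to 1; y axis, percent of genes at or below that value) for all tested genes (grey), the 67 splicing factor genes (black) and 5 families (dashed). At 0 the black curve lies below the grey curve, and it ends at 0.45.

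**Figure D2:**
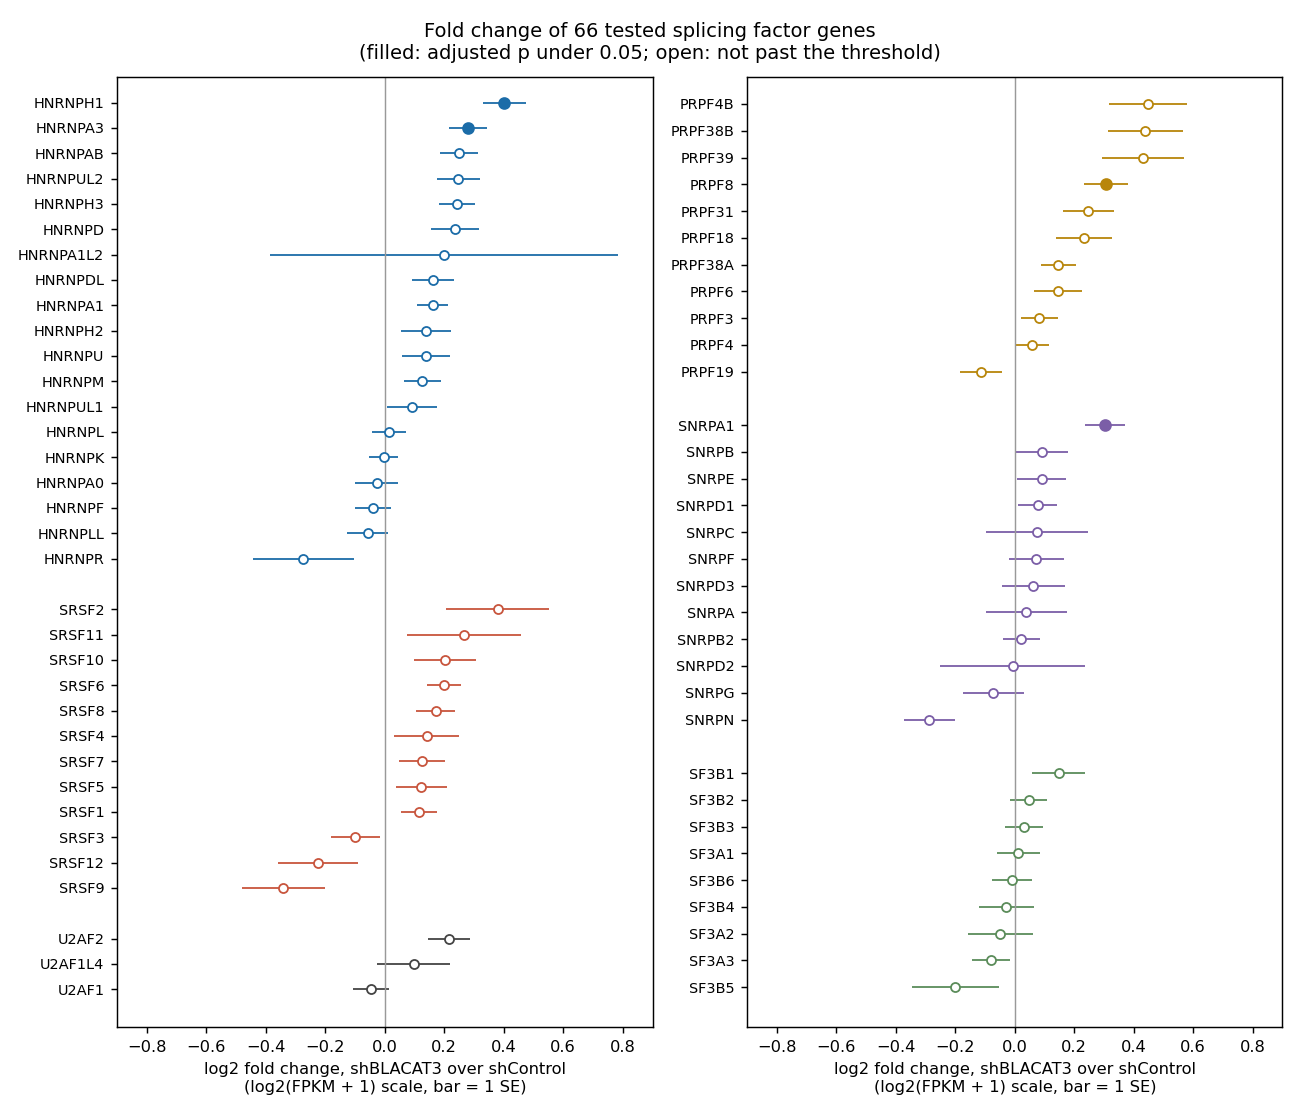
Log2 fold change (x axis, log2(FPKM + 1) scale) of 66 of the 67 tested members, by family, with bars of 1 SE; filled points had an adjusted p under 0.05 in limma. The 4 filled points are HNRNPH1, HNRNPA3, SNRPA1 and PRPF8, and no point lies beyond 0.5 on either side.

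Which members were called depended on which libraries were kept. Without shControl replicate 1, or without shControl replicate 3, limma called 0 members, and without shControl replicate 2 it called HNRNPH1 alone. Without shBLACAT3 replicate 1 it called HNRNPR alone, as lower. Without shBLACAT3 replicate 2 it called PRPF8, PRPF31 and U2AF2 as higher and SRSF9 as lower. Without shBLACAT3 replicate 3 it called 7 members, all higher. With every library kept and the replicate number as a block, it called HNRNPH1 alone. The counts over all genes moved as well, from 257 higher and 681 lower with every library kept. Without shControl replicates 1, 2 and 3 they were 81, 92 and 90 higher and 276, 317 and 331 lower. Without shBLACAT3 replicates 1, 2 and 3 they were 112, 199 and 590 higher and 456, 536 and 753 lower. The count of members with a fold change above 0 was 44 to 52 of 67 when any 1 library was left out.

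Whether the 4 called genes share any regulation was not tested. The sequence before the start of each called gene is shown. Each is the stretch of 250 bases before the RefSeq transcript start on GRCh38.p14, read 5′ to 3′ on the gene's strand: chr2:177212544-177212793 (plus strand) for HNRNPA3, chr5:179634785-179635034 (minus strand) for HNRNPH1, chr17:1684868-1685117 (minus strand) for PRPF8 and chr15:101295249-101295498 (minus strand) for SNRPA1. Capitals mark matches to the searched motifs on either strand. They are an E-box (CACGTG, a palindrome) and a CCAAT box (CCAAT or its complement ATTGG) in HNRNPA3, a CCAAT box in PRPF8, and an ETS site (CCGGAAG or its complement CTTCCGG) and a CCAAT box in SNRPA1. The stretch of HNRNPH1 has no match. It holds 8 pairs of C followed by G, against 34, 19 and 27 in HNRNPA3, PRPF8 and SNRPA1. Whether the RefSeq starts are the ones used in T24 cells was not tested.
HNRNPA3: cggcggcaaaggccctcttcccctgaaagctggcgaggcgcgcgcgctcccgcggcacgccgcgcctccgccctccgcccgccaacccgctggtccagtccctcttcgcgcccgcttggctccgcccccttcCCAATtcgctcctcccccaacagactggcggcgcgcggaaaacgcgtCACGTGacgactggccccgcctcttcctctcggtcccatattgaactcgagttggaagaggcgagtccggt
HNRNPH1: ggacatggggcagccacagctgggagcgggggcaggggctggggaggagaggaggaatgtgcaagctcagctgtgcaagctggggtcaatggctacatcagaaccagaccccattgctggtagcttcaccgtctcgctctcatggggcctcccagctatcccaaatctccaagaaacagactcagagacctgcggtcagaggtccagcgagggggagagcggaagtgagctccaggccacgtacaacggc
PRPF8: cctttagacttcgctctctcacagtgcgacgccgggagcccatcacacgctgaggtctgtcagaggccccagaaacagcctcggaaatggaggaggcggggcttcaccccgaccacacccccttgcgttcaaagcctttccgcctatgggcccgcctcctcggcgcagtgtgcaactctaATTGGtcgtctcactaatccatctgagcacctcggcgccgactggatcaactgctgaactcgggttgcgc
SNRPA1: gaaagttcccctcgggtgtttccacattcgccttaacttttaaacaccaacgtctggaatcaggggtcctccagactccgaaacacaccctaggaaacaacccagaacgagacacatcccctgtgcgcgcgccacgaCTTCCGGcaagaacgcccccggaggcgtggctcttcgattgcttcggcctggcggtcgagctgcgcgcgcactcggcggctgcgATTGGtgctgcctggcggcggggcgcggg

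No motif was present in all 4 stretches. Promoters were matched by symbol for 59 of the 67 tested members and for 8231 of all tested genes. The ETS site was in 21 of 59 member promoters (35.6%) and in 18.2% of all, and it was in 6 of 8 SF3A and SF3B and 7 of 11 SNRP promoters. The median log2 fold change was 0.047 in the 21 members with the site and 0.13 in the 38 without. These 2 sets also differ in family, as the counts before show. The E-box was in 7 of 59 (11.9%, against 9.11% of all), 6 of them HNRNP genes, with a median fold change of 0.16 against 0.074 in the 52 without. The CCAAT box was in 23 (39.0%, against 36.0% of all), 11 of them HNRNP genes. The median fold change was 0.139 with this box and 0.092 without. Searched by 10-letter motifs, NRF1 had a match in 9 (15.3%, against 12.1% of all), the interferon-stimulated response element in 4 (6.78%, against 2.28% of all) and YY1 in 0 (against 0.680% of all). Median fold changes with and without a match were 0.115 and 0.091 for NRF1 and 0.107 and 0.092 for the response element. A match describes letters only, and no difference between members with and without a motif was tested.

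Among the HNRNP genes, 19 of 20 were tested, and 2, HNRNPH1 and HNRNPA3, were called higher (2.57% of all tested genes). HNRNPH1 encodes hnRNP H1, which binds runs of G near splice sites. It stood at 21.6, 23.3 and 20.3 FPKM in shControl and at 30.0, 29.6 and 27.4 FPKM in shBLACAT3 replicates 1, 2 and 3. The groups did not overlap (21.7 ± 1.497 against 29.02 ± 1.41, SD, n = 3; log2 fold change 0.40, SE 0.073, adjusted p 0.020 in limma). It was called in 12 of 16 alternative settings. The call was lost without shControl replicate 1 (adjusted p 0.088) or 3 (0.080) or shBLACAT3 replicate 1 (0.071) or 2 (0.052). HNRNPA3, a relative of hnRNP A1, stood at 78.6, 80.6 and 74.5 FPKM in shControl and at 93.0, 101 and 90.3 FPKM in shBLACAT3 libraries. The groups did not overlap (log2 fold change 0.28, SE 0.064, adjusted p 0.043 in limma), and the call was lost when any library but shBLACAT3 replicate 3 was left out (adjusted p 0.075 to 0.16). Its adjusted p was 0.0514 with the replicate number as a block, 0.058 under quantile normalization and 0.070 without the trend.

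Relatives of HNRNPH1 did not pass. HNRNPH3 stood at 39.3, 42.9 and 40.1 FPKM against 48.6, 49.8 and 46.8, without overlap (log2 fold change 0.24, SE 0.059, adjusted p 0.053 in limma). HNRNPH2 stood at 60.1 ± 3.44 and 66.5 ± 6.40 FPKM (SD, n = 3), with overlapping groups. HNRNPF stood at 149.8 ± 1.39 and 146 ± 9.29 FPKM, also with overlap. HNRNPH1, HNRNPH2 and HNRNPF have similar coding sequences, so the division of fragments between them is uncertain. Whether their fold changes differ was not tested.

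The HNRNP genes with the highest levels were HNRNPAB (201 FPKM over all libraries), HNRNPA1 (173), HNRNPK (161) and HNRNPF (148). HNRNPAB, which binds RNA and DNA, stood at 177, 185 and 190.1 FPKM in shControl and at 215, 208 and 234 FPKM in shBLACAT3 libraries. The groups did not overlap, and the gene did not pass (log2 fold change 0.25, SE 0.064, adjusted p 0.061 in limma). HNRNPA1, which represses exons and shuttles between nucleus and cytoplasm, stood at 161, 166 and 163 FPKM against 177, 190.4 and 180.5. These groups did not overlap either (log2 fold change 0.16, SE 0.052, adjusted p 0.11 in limma). HNRNPK, which binds runs of C, stood at 158, 162 and 164 FPKM against 156, 164 and 162, with overlap and a log2 fold change of -0.0041 (SE 0.050).

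Of the 19 tested HNRNP genes, 9 had all shBLACAT3 libraries above the shControl libraries (14.1% of all tested genes), and 0 had them all below (18.6% of all tested genes). HNRNPD (AUF1, which binds AU-rich RNA), HNRNPDL, HNRNPM and HNRNPUL2 were among the 9. HNRNPM stood at 49.9, 56.1 and 50.3 FPKM against 57.4, 56.2 and 57.1, so that its groups were separated by less than 0.1 FPKM. HNRNPU, a scaffold protein that binds chromatin and RNA, stood at 29.5, 26.4 and 25.2 FPKM against 29.3, 28.3 and 31.8, with overlap. HNRNPR, a relative of SYNCRIP, split the shBLACAT3 libraries, with 44.8 FPKM in replicate 1 and 31.4 and 27.3 in replicates 2 and 3, against 39.7 to 42.8 in shControl. It was not called (adjusted p 0.35 in limma) and was called lower without shBLACAT3 replicate 1 (adjusted p 0.037). HNRNPA1L2, an intronless copy of HNRNPA1, stood at 7.34, 2.04 and 6.97 FPKM against 8.64, 2.02 and 9.53. It was low in replicate 2 of both groups, and its likeness to HNRNPA1 leaves its level uncertain. HNRNPUL2-BSCL2, a readthrough of HNRNPUL2 into the next gene, lay at 0.0455 to 1.75 FPKM and was not tested.

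**Figure D3:**
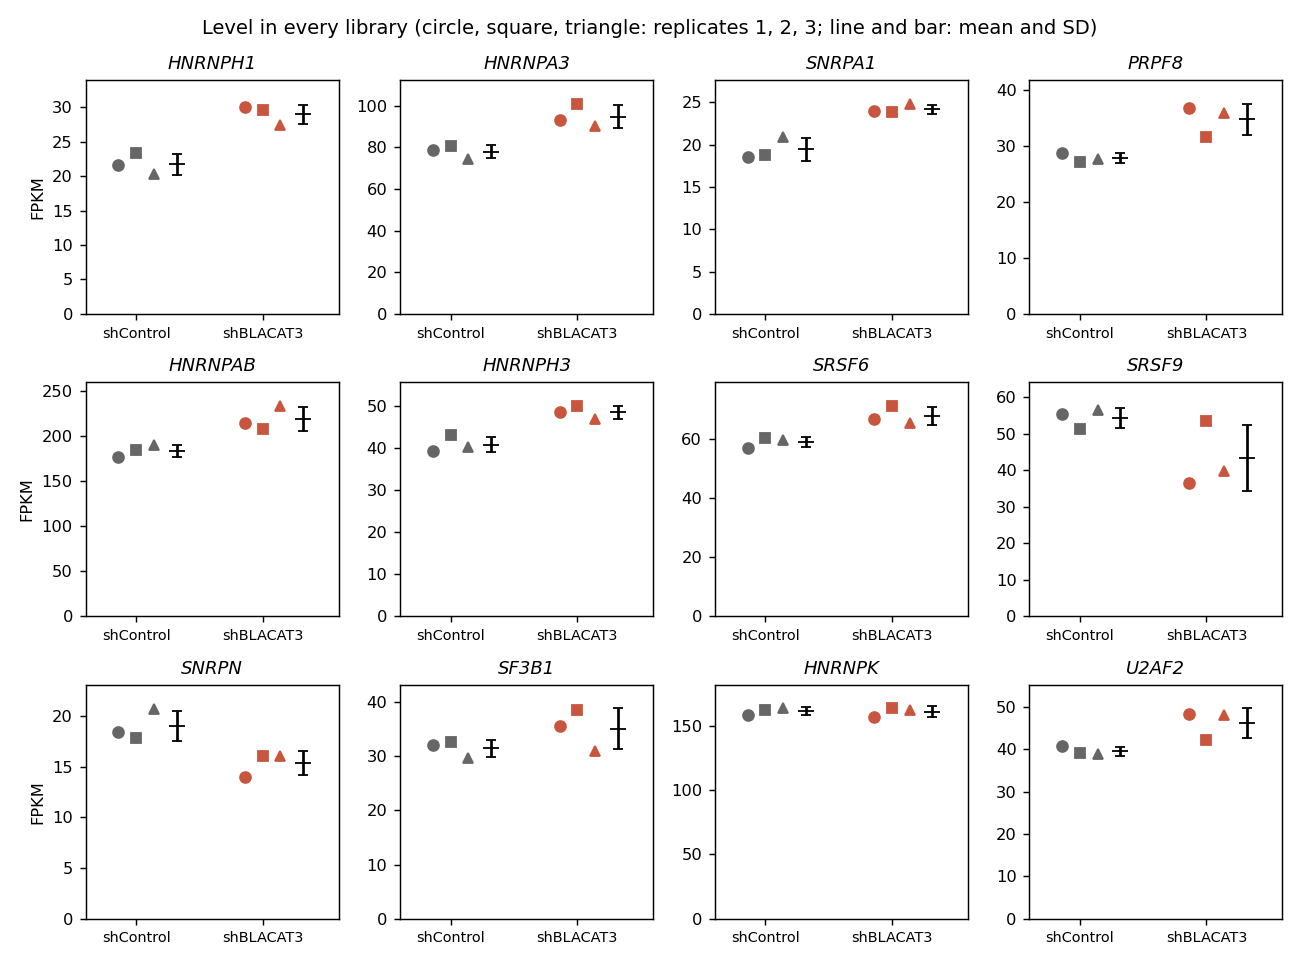
FPKM (y axis, from 0) of 12 members in each library, with replicates 1, 2 and 3 as circle, square and triangle, shControl in grey, shBLACAT3 in red, and the mean with its SD in black. The groups of HNRNPH1, HNRNPA3, SNRPA1 and PRPF8 do not overlap, SRSF9 has 1 shBLACAT3 library among the shControl values, and the groups of HNRNPK overlap.

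None of the 12 SRSF genes was called in limma (0, where 2.57% of all tested genes were called higher and 6.80% lower). At an unadjusted p under 0.05, 2 were higher (10.5% of all tested genes) and 1 lower (15.2% of all tested genes). SRSF1, the founding SR protein and the most abundant here, stood at 104, 102 and 99.99 FPKM in shControl and at 109.7, 118 and 104 FPKM in shBLACAT3 libraries. The groups were barely apart (log2 fold change 0.11, SE 0.061, adjusted p 0.29 in limma). SRSF6, a regulator of exon inclusion, stood at 57.0, 60.3 and 59.5 FPKM against 66.8, 71.3 and 65.4, without overlap (log2 fold change 0.20, SE 0.058, adjusted p 0.087 in limma). SRSF8, a retrocopy of SRSF2, stood at 9.53, 9.13 and 9.78 FPKM against 10.6, 11.3 and 10.6. Its groups did not overlap (log2 fold change 0.17, SE 0.066, adjusted p 0.17 in limma).

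SRSF2, an SR protein that stays in the nucleus, had the highest fold change among the SRSF genes without passing (log2 fold change 0.38, SE 0.17, adjusted p 0.23 in limma). It stood at 23.5, 34.7 and 39.0 FPKM in shControl and at 40.5, 43.7 and 40.6 FPKM in shBLACAT3 libraries. Its shControl replicate 1 lay well under the other two. SRSF9 had the lowest fold change of all tested members (log2 fold change -0.34, SE 0.14, adjusted p 0.19 in limma), at 55.5, 51.2 and 56.4 FPKM in shControl and 36.5, 53.5 and 39.7 FPKM in shBLACAT3 libraries. Replicate 2 of the knockdown lay within the shControl values, and SRSF9 was called lower without that library (adjusted p 0.017). SRSF3, a small SR protein that also acts in RNA export, stood at 44.2, 36.8 and 43.9 FPKM against 38.4, 37.7 and 40.0, with overlap. SRSF7, a close relative of SRSF3, stood at 35.0, 34.0 and 31.5 FPKM against 33.6, 39.5 and 37.0, also with overlap. The lowest level among the SRSF genes was that of SRSF12, at 0.747 to 1.62 FPKM.

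SR genes are known for exons whose inclusion sends the transcript to nonsense-mediated decay, the pathway that destroys messages with an early stop. In GENCODE 29 all 12 tested SRSF genes had a transcript of the nonsense-mediated decay type, against 44.5% of the tested genes it annotates. So did 11 of 19 HNRNP, 3 of 3 U2AF, 4 of 12 SNRP, 3 of 12 PRPF and 3 of 9 SF3A and SF3B genes. The table gives 1 value per gene and does not separate these transcripts from coding ones. The median log2 fold change was 0.13 in the 36 members with such a transcript and 0.075 in the 31 without. Each set held 2 of the 4 called genes (2.57% of all tested genes were called higher). The sets also differ in family, as the counts above show, and the difference between them was not tested.

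Of the U2AF genes, 3 of 4 were tested and 0 called in limma (2.57% of all tested genes were called higher), with 1 higher at an unadjusted p under 0.05 (10.5% of all tested genes). U2AF2, the large subunit that binds the polypyrimidine tract, stood at 40.7, 39.1 and 38.8 FPKM in shControl and at 48.4, 42.2 and 48.0 FPKM in shBLACAT3 libraries. The groups did not overlap (log2 fold change 0.22, SE 0.070, adjusted p 0.12 in limma), and U2AF2 was called without shBLACAT3 replicate 2 (adjusted p 0.039). U2AF1, the small subunit that reads the AG at the end of the intron, stood at 12.8, 12.4 and 13.2 FPKM against 12.6, 12.1 and 12.5, with overlap. U2AF1L5, a near-identical copy of U2AF1 in the annotation, was at 0.514 to 1.32 FPKM and not tested, and how fragments were divided between the pair is uncertain. U2AF1L4, a shorter relative, stood at 1.19, 0.909 and 1.003 FPKM against 1.17, 0.885 and 1.51, with overlap.

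The SF3A and SF3B genes had a median absolute log2 fold change of 0.047, against 0.14 over all members. Of 9 genes, 0 were called in limma (9.37% of all tested genes in either direction), 0 had an unadjusted p under 0.05 (10.5% of all tested genes higher and 15.2% lower), and the groups overlapped in all 9. SF3B1, the scaffold of its complex, stood at 31.995, 32.5 and 29.7 FPKM in shControl and at 35.6, 38.4 and 31.0 FPKM in shBLACAT3 libraries (log2 fold change 0.15, SE 0.090, adjusted p 0.35 in limma). SF3B6, another SF3B subunit, was the most abundant, at 159, 173 and 167 FPKM against 155, 177 and 165. SF3A1, of the SF3A complex, stood at 23.5, 22.7 and 24.3 FPKM against 23.5, 22.1 and 25.7. SF3B5, a small SF3B subunit, had the lowest fold change of the family, -0.20 (SE 0.15). It stood at 45.4, 51.1 and 43.5 FPKM against 41.7, 32.5 and 48.6, with shBLACAT3 replicate 2 apart from the rest.

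Of the 12 SNRP genes, 1, SNRPA1, was called higher (2.57% of all tested genes) and 0 were called lower (6.80%). SNRPA1 encodes U2-A′, a protein of the U2 snRNP. It stood at 18.5, 18.8 and 20.9 FPKM in shControl and at 23.95, 23.8 and 24.8 FPKM in shBLACAT3 libraries. The groups did not overlap (19.4 ± 1.32 against 24.2 ± 0.535, SD, n = 3; log2 fold change 0.30, SE 0.067, adjusted p 0.039 in limma). The call was lost when any 1 of the 6 libraries was left out (adjusted p 0.056 to 0.15) and with the replicate block (0.061), median scaling (0.059) or no trend (0.052). SNRPB2, which encodes the partner of U2-A′ on the same RNA, stood at 71.7 ± 3.53 and 72.8 ± 3.25 FPKM (SD, n = 3). SNRPA, a U1 protein related to SNRPB2, stood at 14.8, 10.7 and 10.4 FPKM against 11.99, 13.2 and 11.5, with overlap.

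The Sm genes SNRPB, SNRPD1, SNRPD2, SNRPD3, SNRPE, SNRPF and SNRPG had log2 fold changes from -0.072 to 0.092, and their groups overlapped. SNRPB was the most abundant of all 70 genes, at 249, 221 and 228 FPKM in shControl and 239.8, 229.6 and 276 FPKM in shBLACAT3 libraries. SNRPD1 stood at 31.9, 35.2 and 33.7 FPKM against 34.4, 37.5 and 34.5. SNRPN, an imprinted relative of SNRPB that can take its place in the ring, was the only tested member whose shBLACAT3 libraries all lay below the shControl libraries. It stood at 18.5, 17.9 and 20.7 FPKM against 14.02, 16.1 and 16.1 and did not pass (log2 fold change -0.29, SE 0.086, adjusted p 0.094 in limma). Its level is uncertain, since it resembles SNRPB and shares transcripts with SNURF.

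Of 12 tested PRPF genes, 11 had a log2 fold change above 0 (49.4% of all tested genes), and 8 had all shBLACAT3 libraries above the shControl libraries (14.1% of all tested genes). Of these genes 1, PRPF8, was called higher (2.57% of all tested genes). PRPF8, the large U5 protein at the core of the spliceosome, stood at 28.9, 27.2 and 27.7 FPKM in shControl and at 36.8, 31.7 and 36.0 FPKM in shBLACAT3 libraries. The groups did not overlap, and the gene passed narrowly (log2 fold change 0.31, SE 0.073, adjusted p 0.0495 in limma). Without shBLACAT3 replicate 2 the adjusted p was 0.020, without any other single library it was 0.080 to 0.16, and with the replicate block it was 0.065. The call was also lost with a pseudocount of 0.1 (adjusted p 0.052), quantile normalization (0.052), median scaling (0.060) or no trend (0.067).

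PRPF31, which holds the tri-snRNP together, was likewise lowest in replicate 2 of the knockdown, at 38.8, 32.2 and 38.9 FPKM against 30.8, 29.6 and 31.4 in shControl. PRPF31 was called without that library (adjusted p 0.026). PRPF6, a bridging protein of the tri-snRNP and the most abundant PRPF gene, stood at 44.7, 39.9 and 40.8 FPKM against 50.6, 43.3 and 45.3, with overlap. PRPF19, a ubiquitin ligase of the PRP19 complex, was the only tested PRPF gene with a fold change below 0. It stood at 32.6, 33.4 and 32.9 FPKM against 30.1, 28.2 and 33.0, with overlap (log2 fold change -0.11, SE 0.070, adjusted p 0.35 in limma).

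PRPF4B, PRPF38B and PRPF39 had the highest fold changes of all members with the 6 libraries kept, and none of the 3 passed. PRPF4B, a kinase that acts on the tri-snRNP, stood at 11.4, 13.9 and 12.3 FPKM in shControl and at 18.9, 19.5 and 14.2 FPKM in shBLACAT3 libraries (log2 fold change 0.45, SE 0.13, adjusted p 0.092 in limma). PRPF38B, related to a tri-snRNP protein, stood at 5.90, 6.94 and 6.57 FPKM against 9.43, 10.6 and 7.54 (log2 fold change 0.44, SE 0.13, adjusted p 0.084 in limma). PRPF39, linked to the U1 particle, stood at 6.36, 6.09 and 5.72 FPKM against 8.62, 10.4 and 6.86 (log2 fold change 0.43, SE 0.14, adjusted p 0.11 in limma). In all 3 genes shBLACAT3 replicate 3 lay nearest to the shControl libraries, still above them. SRSF11 was at 23.8, 23.5 and 14.9 FPKM in the knockdown and 14.3 to 18.9 in shControl, with replicate 3 inside that range. PRPF4B, PRPF38B and PRPF39 were called higher without shBLACAT3 replicate 3 (adjusted p 0.020, 0.022 and 0.024). PRPF39, PRPF31 and SRSF11 were picked for this account after their values were seen. PRPF40B, at 0.537 to 0.912 FPKM, was under the minimum and not tested.

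**Figure D4:**
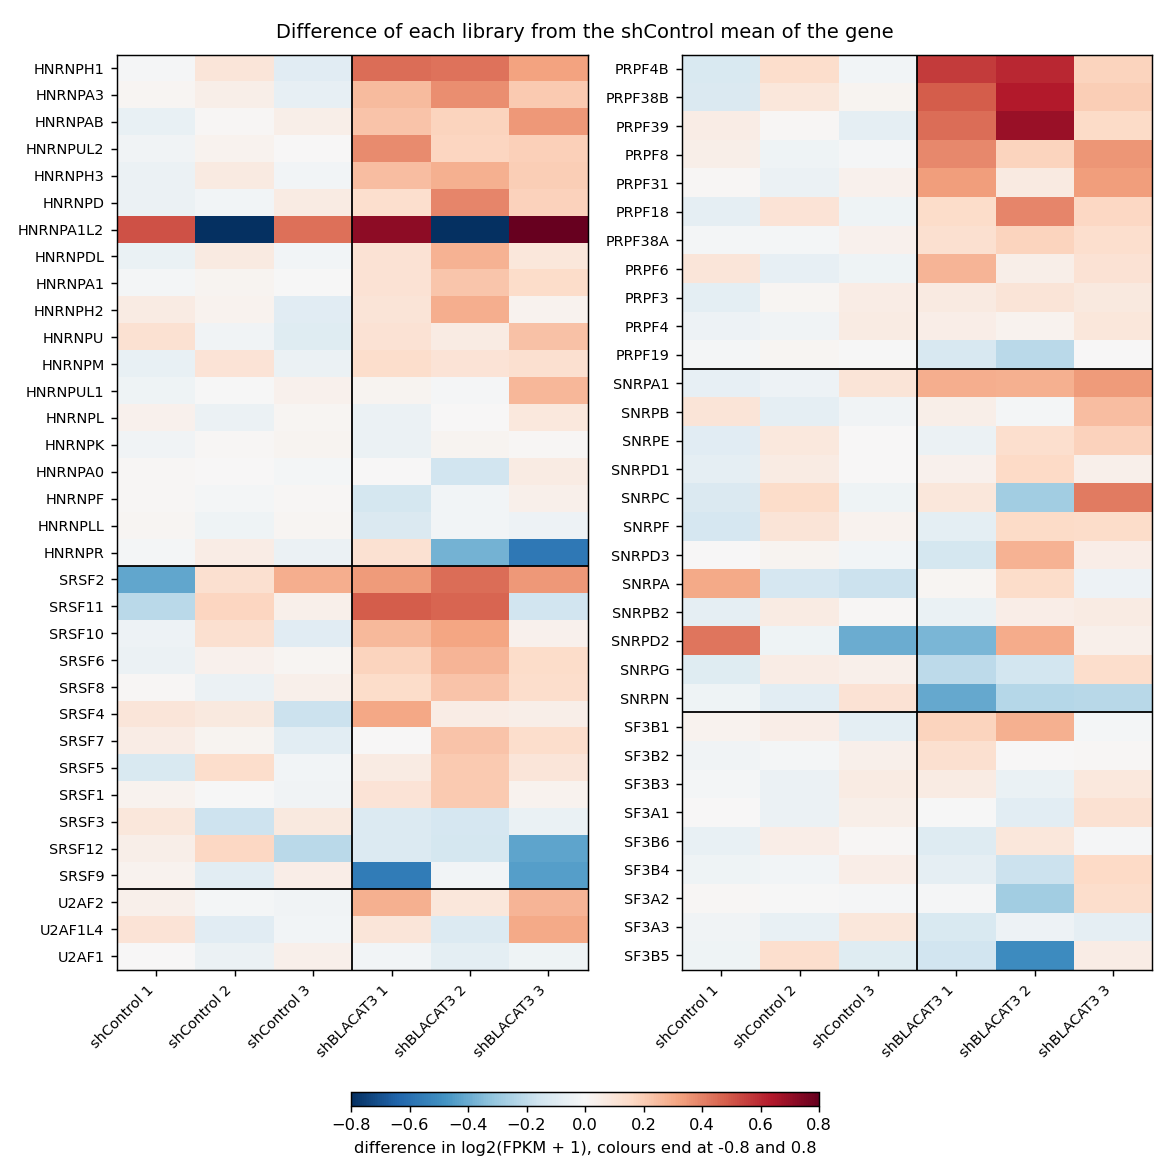
Difference in log2(FPKM + 1) of each library (columns) from the shControl mean of the gene (rows, 66 members by family), red above and blue below; larger differences take the end colours. PRPF4B, PRPF38B and PRPF39 are deeper red in shBLACAT3 replicates 1 and 2 than in 3. SRSF11 is red in shBLACAT3 replicates 1 and 2 and blue in 3. PRPF8 and PRPF31 are deeper red in shBLACAT3 replicates 1 and 3 than in 2, and HNRNPA1L2 is low in replicate 2 of both groups.

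Other genes of the pathway were taken from 6 lists by function, which were chosen with earlier results of these data known. They held 170 tested genes in all. Of these, 5 were called higher (2.94%, where 2.57% of all tested genes were) and 0 lower (6.80% of all tested genes). Their median log2 fold change was 0.082, and 122 of them lay above 0 (71.8%, where 49.4% of all tested genes did). In the list of exon junction complex and nonsense-mediated decay genes, 17 of 20 lay above 0 (49.4% of all tested genes). Of the 20, 3 were called higher (2.57% of all tested genes) and 0 lower (6.80%). UPF3A, which together with its paralogue UPF3B links the exon junction complex to decay, stood at 6.78, 6.65 and 7.69 FPKM in shControl and 11.9, 12.4 and 11.4 FPKM in shBLACAT3 libraries (log2 fold change 0.68, SE 0.079, adjusted p 0.0036 in limma). Its groups were far apart, and it kept its call when any 1 library was left out. UPF3B stood at 15.1, 15.7 and 15.5 FPKM against 19.5, 24.8 and 19.3 (adjusted p 0.0495 in limma), and of the 6 fits without 1 library it was called in those without shBLACAT3 replicate 2 or 3. SMG9, a partner of the kinase SMG1, stood at 2.64, 2.48 and 2.90 FPKM against 4.12, 3.61 and 3.81 (adjusted p 0.034 in limma), and lost its call without any 1 library (adjusted p 0.0508 to 0.13).

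In the list of SR protein kinases and SR-related proteins, 26 of 32 had a fold change above 0 (49.4% of all tested genes). Of the 32, 1 was called higher (2.57% of all tested genes) and 0 lower (6.80%). It was PNN, a nuclear protein that binds the exon junction complex, at 26.9, 29.3 and 25.5 FPKM in shControl and 46.4, 45.8 and 34.7 FPKM in shBLACAT3 libraries (log2 fold change 0.61, SE 0.12, adjusted p 0.029 in limma). Replicate 3 of the knockdown lay nearest to shControl, and of the 6 fits without 1 library PNN was called only in the one without it. SRPK1, a kinase that promotes the nuclear import of SR proteins, stood at 41.7, 43.0 and 41.9 FPKM against 38.7, 37.9 and 36.8, with all shBLACAT3 libraries lower (log2 fold change -0.15, SE 0.052, adjusted p 0.13 in limma). CLK1, a nuclear kinase of SR proteins, stood at 9.74, 9.30 and 8.76 FPKM against 12.2, 12.8 and 9.47, with overlap, and was called higher without shBLACAT3 replicate 3 (adjusted p 0.030). TRA2B, an SR-like regulator, stood at 11.8, 12.1 and 10.9 FPKM against 12.4, 12.5 and 12.6, without overlap (log2 fold change 0.11, SE 0.066, adjusted p 0.35 in limma).

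Among 42 tested splicing regulators with other symbols, 28 had a fold change above 0 (49.4% of all tested genes). Of the 42, 1 was called higher (2.57% of all tested genes) and 0 lower (6.80%). The called gene was RBM25, a regulator of alternative exons. It stood at 15.4, 13.8 and 13.1 FPKM in shControl and at 21.1, 20.7 and 18.8 FPKM in shBLACAT3 libraries (log2 fold change 0.49, SE 0.082, adjusted p 0.015 in limma). The call was lost without shControl replicate 2 or 3 or shBLACAT3 replicate 1 (adjusted p 0.056 to 0.067). PTBP1, the polypyrimidine tract binding repressor, stood at 60.0, 53.8 and 51.5 FPKM against 48.5, 51.3 and 58.1, with overlap.

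The other 3 lists had 0 calls in limma. At an unadjusted p under 0.05, where 10.5% of all tested genes were higher and 15.2% lower, the 30 core helicases and PRP19-related genes had 10 higher and 1 lower. The 25 other snRNP and LSM genes had 3 higher and 0 lower, and the 21 genes of snRNP assembly and import 3 higher and 0 lower, so that the higher shares of both lists were near that of all tested genes. Their smallest p were those of BCAS2 of the PRP19 complex (adjusted p 0.055 in limma), the U6 protein gene LSM5 (0.14) and the importin gene KPNB1 (0.16). MYC, a transcription factor known to drive several splicing factor genes, stood at 20.2, 2.93 and 3.37 FPKM in shControl and 2.77, 1.53 and 31.3 FPKM in shBLACAT3 libraries. It was high in 1 library of each group, with a log2 fold change of -0.082 and an SE of 1.08.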

How the data were processed

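The authors deposited 1 table with a value per gene for 6 libraries. The header names no unit. The values were read as FPKM from their range and from the tools listed per the submitters' processing notes (cutadapt, HISAT2 2.1.0, StringTie). The genome build, annotation and strand setting were not given in the sources used here. Per the labels' protocols, the library kit kept strand. Columns headed NC and SH were read as shControl and shBLACAT3. Symbols came from a gene name table for 10911 of 11081 rows and from GENCODE 29 for 115, and 55 rows kept their identifier. Where a symbol had several rows (3 symbols), the rows were added up.

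The 10008 genes whose mean reached 1 FPKM were fitted in limma 3.58.1 (R 4.3.3) as log2(FPKM + 1), with group as the only term and a trended prior. Tests were two-sided, and p-values were adjusted by Benjamini and Hochberg over all fitted genes, at a threshold of 0.05. On this scale changes of low genes are understated. An exact permutation test of 3 against 3 libraries cannot go below 0.1, so none is given. The procedure was tried on simulated data, where sets of 50 genes were each given a known change. A log2 change of 0.25 was recovered in 4% of its set, and one of 0.5 in 56%. For changes of 1 and 2 the recovered shares were 78% and 94%. False calls made up 4 of the 120 in that simulation. The data gave 938 calls over all genes, so the same adjusted threshold was stricter in the simulation. Its changed genes were not matched to the members in level or spread. The recovered shares are therefore not those to be had for the members. A member that was not called may still have changed by a small amount.

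The members and lists were chosen with earlier results of these data known. Named with values were all called members, in each family the most abundant member, the 2 with the largest absolute fold change and the 2 with the smallest p, and 18 members and 5 other genes set by name. Each other list gave its called genes (at most 4) or the gene with the smallest p. Further members are named for comparison, after their values were seen. The values of 1 member, counted in all totals, are not reported here. Promoters are RefSeq windows. Alternatives were a replicate block, another pseudocount, other filters, median scaling, quantile normalization, no trend, robust moderation, array weights, rows tested singly and each library left out. Figures were drawn with matplotlib 3.10.9.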

Additional observations from a re-analysis of the deposited data

How the results depend on the processing

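Over all genes 257 were called higher and 681 lower, and leaving out 1 library gave 81 to 590 higher and 276 to 753 lower. The 4 members called higher became 2 with median scaling (HNRNPH1 and HNRNPA3), 1 without the trend (HNRNPH1), 8 with array weights and 0 to 7 with 1 library left out. Quantile normalization also gave 4, of which 2 were the same (HNRNPH1 and SNRPA1), with HNRNPAB and HNRNPH3 in place of HNRNPA3 and PRPF8, and a pseudocount of 0.1 gave 3, without PRPF8. Members called lower were 0 to 1 with 1 library left out (HNRNPR or SRSF9). The 5 other splicing genes called higher became 13 with array weights and 1 to 19 with 1 library left out. The members' median log2 fold change of 0.097 became 0.13 under quantile normalization and 0.079 to 0.14 with 1 library left out, and was above 0 in all 16 alternatives. HNRNPH1, HNRNPA3, SNRPA1 and PRPF8 had a fold change above 0 in each of them. Family medians also moved: with 1 library left out they lay between -0.0064 and 0.20 in U2AF, 0.020 and 0.11 in SNRP, -0.044 and 0.061 in SF3A and SF3B and 0.19 and 0.26 in PRPF genes. The U2AF median was 0.23 under quantile normalization and 0.16 with a pseudocount of 0.1, and with array weights the SNRP median was 0.027 and that of SF3A and SF3B genes -0.025. Differences near 0 changed sign. HNRNPK became 0.0025 with median scaling and lay between -0.019 and 0.016 with 1 library left out, as SF3A1 did between -0.044 and 0.061, SF3B6 between -0.057 and 0.039, SNRPA between -0.045 and 0.19, U2AF1L4 between -0.0064 and 0.20 and MYC between -1.21 and 0.70. The cause was not tested.

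The labels do not say that a replicate number marks a shared culture or day. Deviations from the group means correlated across genes at 0.1001, 0.117 and 0.0895 between libraries of the same number. Between libraries of other numbers the values ran from -0.116 to 0.0240, and each library correlated best with its own number. With the replicate number as a block, 161 genes were called higher and 451 lower, 1 member was called (HNRNPH1), and 3 other splicing genes were. The depth behind the values is unknown.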
